A study of Mus musculus with 12 samples.

Results

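The genes described here are the translation initiation and elongation factors of the mouse blastocyst, taken as every gene whose symbol begins with Eif1 to Eif6, Eef1 or Eef2 and that has a probe set paired with that gene alone. The rule found 58 genes among 18193 genes with a probe set of their own, with 155 probe sets between them. Of these, 56 genes and 131 probe sets reached the minimum for testing, an average signal of 100 across all 12 arrays, among 13599 tested genes. Eif4a3 and Eef2kmt stayed below it. Signals are array intensities rescaled to a common trimmed mean of 500. A further 8 probe sets that the annotation gives to several genes at once were left out, among them those of Eif3j1, Eif3j2 and Eif4ebp3.

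RNA of mouse blastocysts, the stage at which an inner cell mass lies inside an outer trophectoderm, was hybridised to 12 arrays. In 4 samples the blastocysts had been cultured in Ca2+-free medium, 4 came from embryos treated with 20 Ca2+ pulses, and 4 were normal controls. Per its title the study concerns Ca2+ oscillations after fertilisation, and the comparisons ask what differs in the blastocyst once that signal has been changed. The labels give no strain, number of embryos per sample, length of culture or form of a pulse. They do not say whether replicates were separate collections either, so that p-values speak of the spread between samples alone, which may be technical.

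Translation begins when eIF2 brings the initiator tRNA to the small ribosomal subunit, which eIF3 and the eIF1 group hold ready for the mRNA. The eIF4 factors bind the mRNA cap and unwind the leader, and eIF5 and eIF5B complete the joining of the subunits at the start codon. eEF1A then delivers each aminoacyl-tRNA and eEF2 moves the ribosome along. Phosphorylation of eIF2 by stress kinases, of the 4E-BPs by mTOR and of eEF2 by the Ca2+- and calmodulin-dependent kinase Eef2k are textbook switches of the rate of protein synthesis.

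In Ca-free medium, 14 of the 56 tested genes rose and 5 fell against control, each gene being read by its brightest probe set (limma, Benjamini-Hochberg adjusted p under 0.05 over all tested probe sets). Over all tested genes 12.3% rose and 28.8% fell. The median log2 change of the factors was 0.07 and that of all genes -0.13. After 20 pulses 0 of the 56 rose and 1 fell by limma, against 0.75% and 0.331% of all genes, with medians of -0.09 and -0.04. At an unadjusted p under 0.05, 2 of the 56 were higher and 15 lower after 20 pulses. All genes were not counted at that threshold, here or below. Factor probe sets averaging 5000 or more had a median log2 change of -0.10 after 20 pulses, and all probe sets as bright one of -0.09. Without control 1 only 8 genes were called higher in Ca-free medium, and without Ca-free array 4 only 9.

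The direction of the family in Ca-free medium depended on how the arrays were scaled to each other. The Ca-free arrays had lower median signals than the others at the same trimmed mean (38.3 to 39.2 on the deposited scale, against 47.3 to 53.7 after 20 pulses and 49.4 to 53.0 in controls). Quantile normalization gave 5 genes higher and 9 lower, against 9.02% and 11.5% of all genes. Scaling to the array median gave 47 and 2, against 42.2% and 5.21%, and scaling to the 9 hybridization control probe sets 1 and 22, against 2.53% and 48.6%. The median change of all genes moved with it, to -0.03, 0.25 and -0.32 under these 3 scalings. Relative to that median, the factors' own median lay higher by 0.21 with the main scaling, 0.05 with quantile normalization, 0.23 with median scaling and 0.19 with hybridization controls. Called in one direction under all 4 scalings were Eif2s3y, which rose, and Eif4b and Eif5a2, which fell. Over all genes 2.51% rose and 4.38% fell under all 4. The increases of Eif1b, Eif1ad, Eif2b3, Eif2d, Eif3c, Eif3e, Eif3l, Eif3m, Eif4e2 and Eef1e1 lost their calls under quantile and under hybridization control scaling. Those of Eif3h, Eef1akmt1 and Eef1akmt2 lost theirs under hybridization control scaling.

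**Figure D1:**
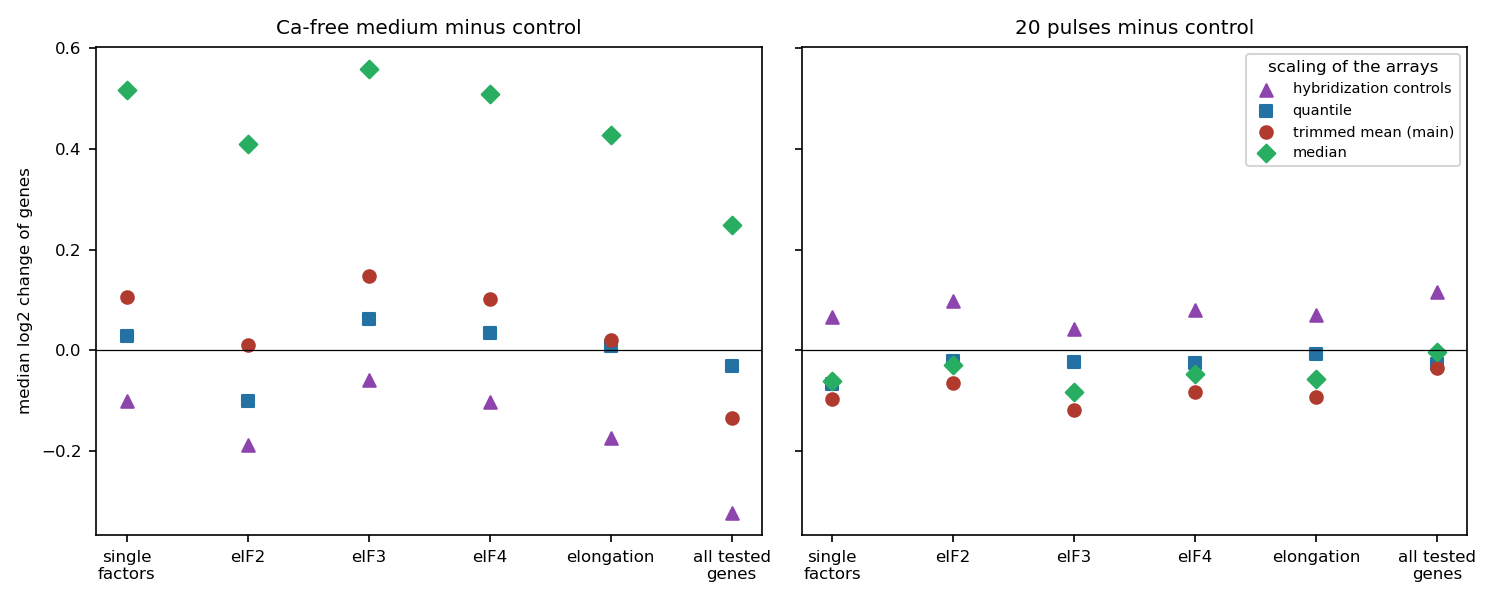
Median log2 change of the tested genes of 5 factor groups and of all tested genes, for Ca-free medium minus control (left) and 20 pulses minus control (right), under 4 scalings of the arrays (marker shapes). In Ca-free medium the eIF3 median stands at 0.56 with median scaling and at -0.06 with hybridization controls, while all genes stand at 0.25 and -0.32.

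The direction of change also went with the signal of a probe set. Of the 46 factor probe sets whose signal averaged 5000 or more, 14 rose and 0 fell in Ca-free medium by limma (21 and 1 at an unadjusted p under 0.05). That is 30.4% higher, against 30.6% of all probe sets as bright. Of the 30 with a mean signal between 100 and 500, 16 fell and 1 rose, which is 53.3% lower, against 38.9% of all probe sets as dim. The median log2 changes in these ranges were 0.13 and -0.56 for the factors and 0.10 and -0.34 for all probe sets. Many translation factors lie in the bright range, where their share of increases was close to that of other bright probe sets.

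**Figure D2:**
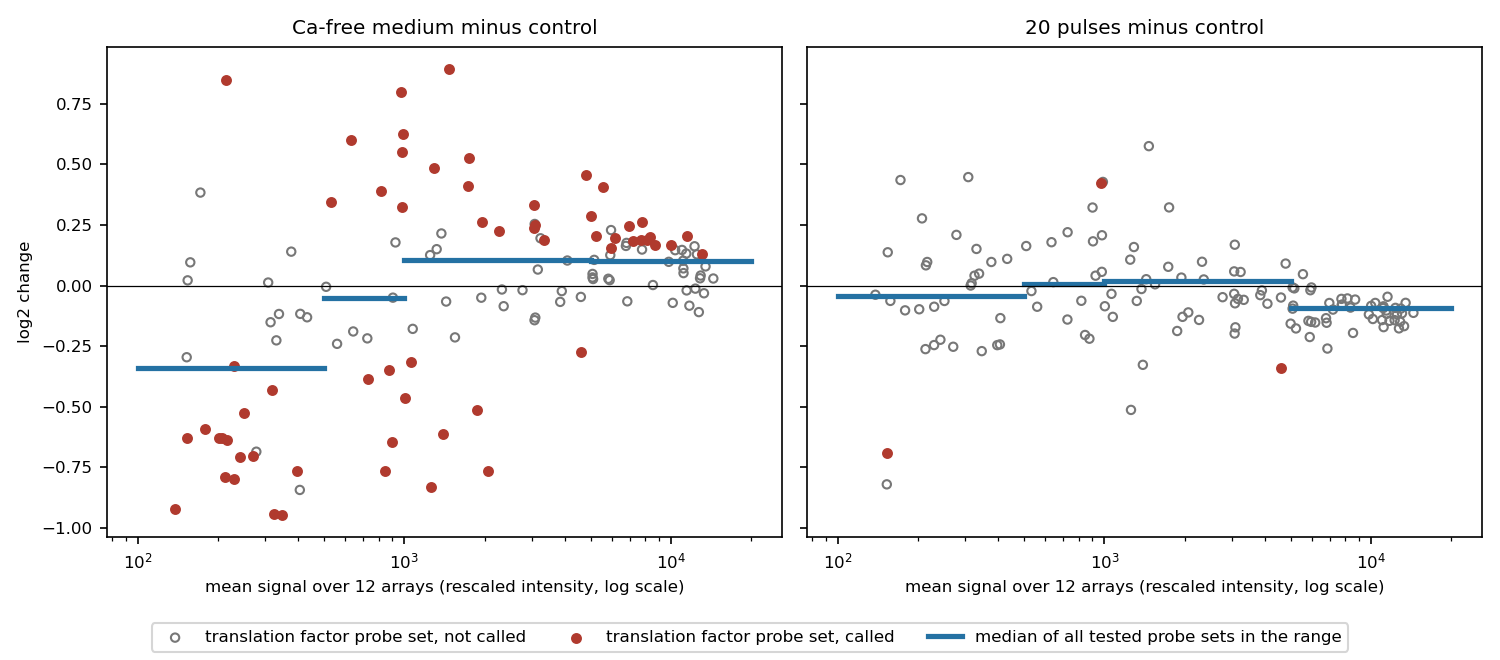
Log2 change of the 131 tested translation factor probe sets against their mean signal (log axis), for Ca-free medium (left) and 20 pulses (right) minus control. Filled points are called, open points are not, and the blue lines are medians of all tested probe sets in each signal range. In Ca-free medium the lines lie at -0.34 in the dimmest range and 0.10 in the brightest.

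Array controls differed between the groups, and their part in these results was not tested. The 5' probe set of 18S ribosomal RNA read 4003 to 5780 in Ca-free medium, 2653 to 3689 after 20 pulses and 878 to 2559 in controls, with no overlap, and controls 3 and 4 (878 and 883) lay far below controls 1 and 2 (2409.5 and 2559). The 3'-to-5' ratio of the Gapdh probe sets was 2.89 to 5.05 in Ca-free medium, 5.70 to 7.58 after 20 pulses and 5.76 to 8.90 in controls. That of Actb was 1.69 to 1.88 in Ca-free medium, 1.49 to 1.69 after 20 pulses and 1.59 to 2.69 in controls, with controls 1 and 2 at 1.59 and 1.67 and controls 3 and 4 at 2.69 and 2.64. All 11 blastocyst markers on a fixed list were measured, including Pou5f1, Nanog and Cdx2. In Ca-free medium 2 rose and 2 fell, against 12.3% and 28.8% of all genes. Cdx2 (log2 change 0.28) and Pou5f1 (0.20) were the higher ones, and Eomes (-0.70) and Gata4 (-0.69) the lower ones. A second probe set of Eomes was not called (-0.20), and the Gata4 probe set is dim, with a mean signal of 174. After 20 pulses 1 of the 11 rose, against 0.75% of all genes. It was the endoderm factor Sox17 (log2 change 1.00, adjusted p = 0.0269 by limma), whose dimmer probe set was not called (0.34). Gata4 and Gata6, also on the list, had log2 changes of -0.31 and -0.01 on their brightest probe sets, neither called. Of 7 cumulus and granulosa markers 2 reached the minimum, and both fell. The summed signal of the 6 on the array, those below the minimum included, was 346 to 478 in Ca-free medium, 566 to 810 after 20 pulses and 749 to 957 in controls. Of 7 oviduct and uterine epithelium markers 6 were measured and 5 fell. The summed signal of all 7 was 675 to 949 in Ca-free medium, 1143 to 1349 after 20 pulses and 1367 to 1525 in controls. Of the 2 measured blood markers 0 were called by limma and 2 were lower at an unadjusted p under 0.05. Every measured cumulus, granulosa, oviduct, uterine and blood marker lies in the dim range. There 38.9% of all probe sets fell in Ca-free medium, with a median log2 change of -0.34. The counts of these markers were made with the main scaling only. In bulk RNA fewer cells of a type, less RNA per cell and lower readings of dim probe sets in general cannot be told apart.

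Of the 9 tested genes of single factors 2 rose and 1 fell in Ca-free medium, against 12.3% and 28.8% of all genes. Their median log2 change was 0.11, which became 0.03, 0.52 and -0.10 under quantile, median and hybridization control scaling. Eif1b, a close relative of the start codon fidelity factor eIF1, read 2123, 2301, 2286 and 2373 in Ca-free medium, 1624, 1518, 1922 and 1847 after 20 pulses and 1735, 1776, 2039.7 and 2008 in controls. Every Ca-free array lay above every control (log2 change 0.26 ± 0.08 (SE), adjusted p = 0.023), and the call ended without Ca-free array 4, control 1 or control 2 (log2 change 0.22 to 0.24, adjusted p up to 0.0695). Eif1ad, which has an eIF1A-like domain, read 3917, 3552, 3467 and 3759 in Ca-free medium, 2981, 3161, 3049 and 3177 after 20 pulses and 3065, 3131, 3355 and 3346 in controls. It rose by 0.19 (adjusted p = 0.021), without overlap between Ca-free medium and control, and the call ended without Ca-free array 1, control 1 or control 2 (log2 change 0.15 to 0.17, adjusted p up to 0.0671). Its dimmer probe set fell by 0.32 on the log2 scale in the same arrays (adjusted p = 0.0109).

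Eif1ax, the X-linked gene of the scanning factor eIF1A, read 7169.5, 6704, 7276 and 6909 in Ca-free medium, 6759, 4704, 6689 and 6596 after 20 pulses and 6195, 7761, 7934 and 7597 in controls, and the groups overlapped (log2 change -0.07 in Ca-free medium and -0.26 after 20 pulses, neither called). Its dimmest tested probe set rose, with 231, 398, 342 and 275 in Ca-free medium, 183, 127, 236 and 137 after 20 pulses and 147, 180.5, 104 and 206 in controls (log2 change 0.85 ± 0.21 (SE), adjusted p = 0.00612), and did so under all 4 scalings. Eif1a, the second gene of this factor, read 5313 to 5679 in Ca-free medium, 4865 to 5101 after 20 pulses and 4747 to 5330.5 in controls and was not called. The 3 probe sets of Eif1ax therefore did not move as one.

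Eif5, the GTPase-activating protein of eIF2, read 11368, 12924, 12392 and 10888 in Ca-free medium, 10670, 10007, 10852 and 9933 after 20 pulses and 10288, 10910, 11023 and 12050 in controls and was not called (log2 change 0.10), although 3 of its 5 tested probe sets rose in Ca-free medium. Eif6, which keeps the ribosomal subunits apart, read 5237, 5674, 4868 and 5283 in Ca-free medium, 4781, 4718, 4737 and 4991 after 20 pulses and 4449, 5757, 5472 and 4968 in controls. Its groups overlapped in both comparisons. Eif5a, the hypusine-bearing factor that helps the ribosome past difficult peptide bonds, read 13528, 14077, 11813 and 15100 in Ca-free medium, 11640, 10504, 10134 and 11736 after 20 pulses and 11491, 12565, 12560 and 11937 in controls and was not called (log2 change 0.16, adjusted p = 0.074).

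Eif5a2, the paralogue of Eif5a, fell. It read 173, 154, 175 and 182 in Ca-free medium, 298, 275, 287 and 169 after 20 pulses and 307, 299.6, 306 and 285 in controls. All 4 Ca-free arrays were below all controls (log2 change -0.71 ± 0.14 (SE), adjusted p = 0.00211), while after 20 pulses array 4 alone lay with the Ca-free arrays and the other 3 with the controls (log2 change -0.22, not called). The decrease in Ca-free medium held under all 4 scalings and without any single array, at log2 changes of -0.73 to -0.67, and its signal lies in the dim range, where 38.9% of all probe sets fell.

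Eif5b, the GTPase that joins the ribosomal subunits, gave the increase that both treatments shared. Its brightest probe set read 1755, 1436, 1418 and 1478 in Ca-free medium, 1069, 1472, 1153 and 1517 after 20 pulses and 1196, 1223, 1438 and 1364 in controls and was not called in either comparison. The second read 1292, 1290, 1272 and 1143 in Ca-free medium, 852, 989.6, 981 and 997 after 20 pulses and 754, 718, 736 and 613 in controls. On this probe set the Ca-free arrays were the highest, the arrays of 20 pulses lay between, and the controls were the lowest, with no overlap between any of the 3 groups. The log2 change was 0.80 ± 0.09 (SE), adjusted p = 0.000109 in Ca-free medium and 0.42 ± 0.09 (SE), adjusted p = 0.0284 after 20 pulses, and both comparisons share the same controls. Both increases held under all 4 scalings, the first also without any single array. The second ended without 20-pulse array 2, 20-pulse array 3, 20-pulse array 4, control 2, control 3 or control 4 (log2 change 0.36 to 0.44, adjusted p up to 0.0909). It also ended with no intensity trend (adjusted p = 0.0568), with a replicate block (adjusted p = 0.052) and against controls 1 and 2 alone (0.36, adjusted p = 0.133). The 5' signal of 18S ribosomal RNA runs in the same order over the 3 groups as this probe set, and its part was not tested.

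The subunits of eIF2 on the X and Y chromosomes differed from each other. Eif2s3y, the Y-linked gene of the γ subunit, which is needed for spermatogonial proliferation in the mouse, read 1359.6, 1025, 1064 and 1345 in Ca-free medium, 816, 1018, 931 and 972 after 20 pulses and 757, 799, 793 and 862 in controls. All Ca-free arrays lay above all controls (log2 change 0.55 ± 0.10 (SE), adjusted p = 0.00147), and the increase held under all 4 scalings and without any single array, at log2 changes of 0.49 to 0.62. The 20-pulse arrays overlapped the controls (log2 change 0.21). Eif2s3x, its X-linked partner, read 5145, 5659, 5378 and 4630.2 in Ca-free medium, 5459, 4707, 4931 and 4898 after 20 pulses and 5529.7, 5237, 4491 and 4879 in controls with all groups overlapping (log2 change 0.05). The ratio of the Eif2s3y signal to the Eif2s3x signal on the same array, which multiplying an array by a constant does not move, was 0.181 to 0.291 in Ca-free medium, 0.149 to 0.216 after 20 pulses and 0.137 to 0.177 in controls.

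Of 4 further sex-linked genes looked at, 0 were called higher in Ca-free medium by limma. The brightest probe sets of the Y-linked Kdm5d, Uty and Usp9y averaged only 169, 176 and 204. They lie in the dim range, where the median log2 change of all probe sets was -0.34. Their log2 changes of 0.15, -0.22 and -0.19 in Ca-free medium were not called. Xist, the RNA of the inactive X, fell by 0.64 on the log2 scale on its brightest probe set (adjusted p = 0.000267), while its other 2 had log2 changes of 0.29 and 0.23 and were not called. The labels do not give the sex of the embryos, and its part in these values was not tested.

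Eif2s3y and Eif2s3x each held a run of 12 C or T bases at or near the start of transcription. The windows below, from RefSeq (GRCm38.p6), run from 10 bases before to 20 bases after the annotated start of transcription, and so hold the first bases of the 5′ UTR. Capitals mark the longest run on the sense strand that begins with C and goes on with at least 6 further C or T. Such pyrimidine runs at the very start of an mRNA are the hallmark of transcripts whose translation follows mTOR, the class that holds ribosomal proteins and Eef1a1. They are shown for the eIF2γ pair, for Eef1a1 and Eif3f of the elongation and eIF3 groups, and for Eif4b, the gene with the largest called decrease on a brightest probe set.
Eif2s3y chrY:1010585-1010614 (plus strand): ggccacagccaCTTCCTTCTTTCgtgagca
Eif2s3x chrX:94212632-94212661 (minus strand): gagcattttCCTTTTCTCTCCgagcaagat
Eif3f chr7:108934405-108934434 (plus strand): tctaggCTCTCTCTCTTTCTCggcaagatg
Eef1a1 chr9:78481705-78481734 (minus strand): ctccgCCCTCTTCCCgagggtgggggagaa
Eif4b chr15:102073763-102073792 (plus strand): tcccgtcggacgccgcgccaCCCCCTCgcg

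In the windows of Eif2s3x, Eif3f and Eef1a1 the run spans the start itself, in Eif2s3y it begins 1 base after it, and in Eif4b 10 bases after it. Of 58 genes 47 had an entry in the table of starts. Of these 14, or 29.8%, held a run of at least 7 bases anywhere in a window, against 15.6% of all 27025 genes. Runs lying wholly before or after the start were counted too, as in Eef1akmt2 and Eif4b, and runs were cut at the edge of the window. Those 14 genes were all tested: 4 rose and 1 fell in Ca-free medium, with a median log2 change of 0.04. Among the 31 tested genes without a run 6 rose and 4 fell, with a median of 0.07. A run of letters is a description of the sequence, and the arrays measured RNA level, not translation.

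Eif2s2, the β subunit of eIF2, read 13147, 14122, 11965 and 14661 in Ca-free medium, 12677, 11850, 12272 and 12084 after 20 pulses and 12885, 13933, 12359 and 13092 in controls, with all groups overlapping and a log2 change of 0.04 in Ca-free medium, and 1 of its 6 tested probe sets fell. The whole eIF2 group of 14 tested genes takes in eIF2B, the kinases and other genes named after eIF2. Of these 14 genes 3 rose and 2 fell in Ca-free medium, against 12.3% and 28.8% of all genes. The median log2 change was 0.01, and -0.10, 0.41 and -0.19 under quantile, median and hybridization control scaling.

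eIF2B is the exchange factor that reloads eIF2 with GTP, and 1 of its 5 subunit genes was called. Eif2b3, the γ subunit, read 1002, 1144, 1186 and 1130.3 in Ca-free medium, 976, 1079, 798 and 851 after 20 pulses and 821, 1010.5, 745 and 983 in controls. The ranges touched, with the lowest Ca-free array below the highest control (log2 change 0.32 ± 0.11 (SE), adjusted p = 0.0338), and the call ended without Ca-free array 2, Ca-free array 3, Ca-free array 4, control 1 or control 3 (log2 change 0.24 to 0.32, adjusted p up to 0.105). Eif2b5, the catalytic ε subunit, read 2980.4, 2949, 2836 and 3269 in Ca-free medium, 2732, 3195, 2890.4 and 2767 after 20 pulses and 3085, 3195, 3551 and 3478 in controls and had the lowest log2 change of the complex in both comparisons (-0.14 and -0.20, neither called), while its dim second probe set fell to 106 to 169 in Ca-free medium, against 227 to 346 in controls (log2 change -0.80, adjusted p = 0.00296), a call that ended under quantile normalization. Eif2b1 and Eif2b4 had log2 changes of 0.07 and -0.07 in Ca-free medium.

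Eif2b2, the β subunit, gave unlike readings on its 3 probe sets. The brightest read 5268, 5431, 5516 and 4836 in Ca-free medium, 5108, 5452, 4761 and 4235 after 20 pulses and 5174, 5197, 5138 and 5125 in controls, with a log2 change of 0.03 in Ca-free medium. The dimmest read 559, 572, 604 and 663 in Ca-free medium, 946, 912, 854 and 880.4 after 20 pulses and 1081, 999, 1057 and 1020.4 in controls, where all Ca-free arrays were low (log2 change -0.77 ± 0.08 (SE), adjusted p = 9.67e-05) under all 4 scalings. The one between fell as well, by 0.83 on the log2 scale (adjusted p = 0.0115). The sources used here do not give where on the transcript each probe set lies.

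The eIF2 kinases shut initiation down under stress, and 1 of the 4 was called. Eif2ak2, known as PKR and activated by double-stranded RNA, read 175, 155, 159 and 94.8 in Ca-free medium, 266, 309, 224 and 246 after 20 pulses and 223, 219.8, 278 and 245 in controls. Every Ca-free array was below every other array (log2 change -0.64 ± 0.16 (SE), adjusted p = 0.00586), but neither quantile normalization nor median scaling kept the call. Eif2ak4, known as GCN2 and activated by lack of amino acids, read 523, 439, 444 and 543 in Ca-free medium, 544, 545, 526 and 584 after 20 pulses and 458, 436, 540.0 and 522 in controls on its brightest probe set and was level (log2 change -0.01). Its dim probe set fell to 71.5 to 80.3 in Ca-free medium, against 156 to 191 in controls (log2 change -0.92, adjusted p = 0.000678), under all 4 scalings. Eif2ak3, the endoplasmic reticulum stress kinase PERK, read 600.1, 728, 691 and 680.0 in Ca-free medium, 781, 676, 723 and 674 after 20 pulses and 758, 766, 889 and 748 in controls. Its Ca-free arrays lay below all controls, without a call (log2 change -0.22, adjusted p = 0.0639), and Eif2ak1, the haem-regulated kinase, had a log2 change of -0.24.

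Eif2a, a separate initiator tRNA binding factor that is no subunit of eIF2, was the one gene that fell after 20 pulses. It read 4331, 4529, 4915 and 3666 in Ca-free medium, 4021, 4020, 4448 and 4099 after 20 pulses and 5227, 5019, 5119 and 5681 in controls. All arrays of both treatments lay below all controls, with log2 changes of -0.28 ± 0.08 (SE), adjusted p = 0.0127 in Ca-free medium and -0.34 ± 0.08 (SE), adjusted p = 0.0447 after 20 pulses, measured against the same controls. The call after 20 pulses ended whichever of the 8 arrays compared was left out (log2 change -0.30 to -0.37, adjusted p up to 0.114), and under median and hybridization control scaling, and the one in Ca-free medium turned to 0.13 under median scaling (adjusted p = 0.255). The probe set carries the suffix _x_at, which marks probes that may also match other transcripts, and the gene's second probe set was level (log2 changes -0.05 and 0.03). Eif2d, which acts in ribosome recycling and reinitiation, read 8178, 7640.4, 7407 and 8406 in Ca-free medium, 5808, 6410.5, 6392 and 6757 after 20 pulses and 6206, 6488, 6803 and 7181 in controls. It rose in Ca-free medium without overlap (log2 change 0.24 ± 0.06 (SE), adjusted p = 0.00702), and its call ended under quantile and hybridization control scaling.

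eIF3 is the large scaffold on which the initiation complex is built. Of its 11 tested subunit genes 5 rose in Ca-free medium and 0 fell by limma (8 and 0 at an unadjusted p under 0.05). Over all genes 12.3% rose and 28.8% fell. The median log2 change of the 11 was 0.15. The median was 0.06 with quantile normalization, 0.56 with median scaling and -0.06 with hybridization controls. Relative to all genes it lay higher by 0.28, 0.09, 0.31 and 0.26 with the main, quantile, median and hybridization control scaling. The 11 brightest probe sets all have mean signals of the middle and bright ranges, where the medians of all probe sets were 0.10. In these ranges 30% and 30.6% of all probe sets rose. After 20 pulses 0 of the 11 were called by limma (6 lower at an unadjusted p under 0.05), with log2 changes from -0.21 to -0.05. Their median was -0.12, which became 0.04 with hybridization controls. With the main scaling all probe sets averaging 5000 or more had a median of -0.09 after 20 pulses, and those between 1000 and 5000 one of 0.02.

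**Figure D3:**
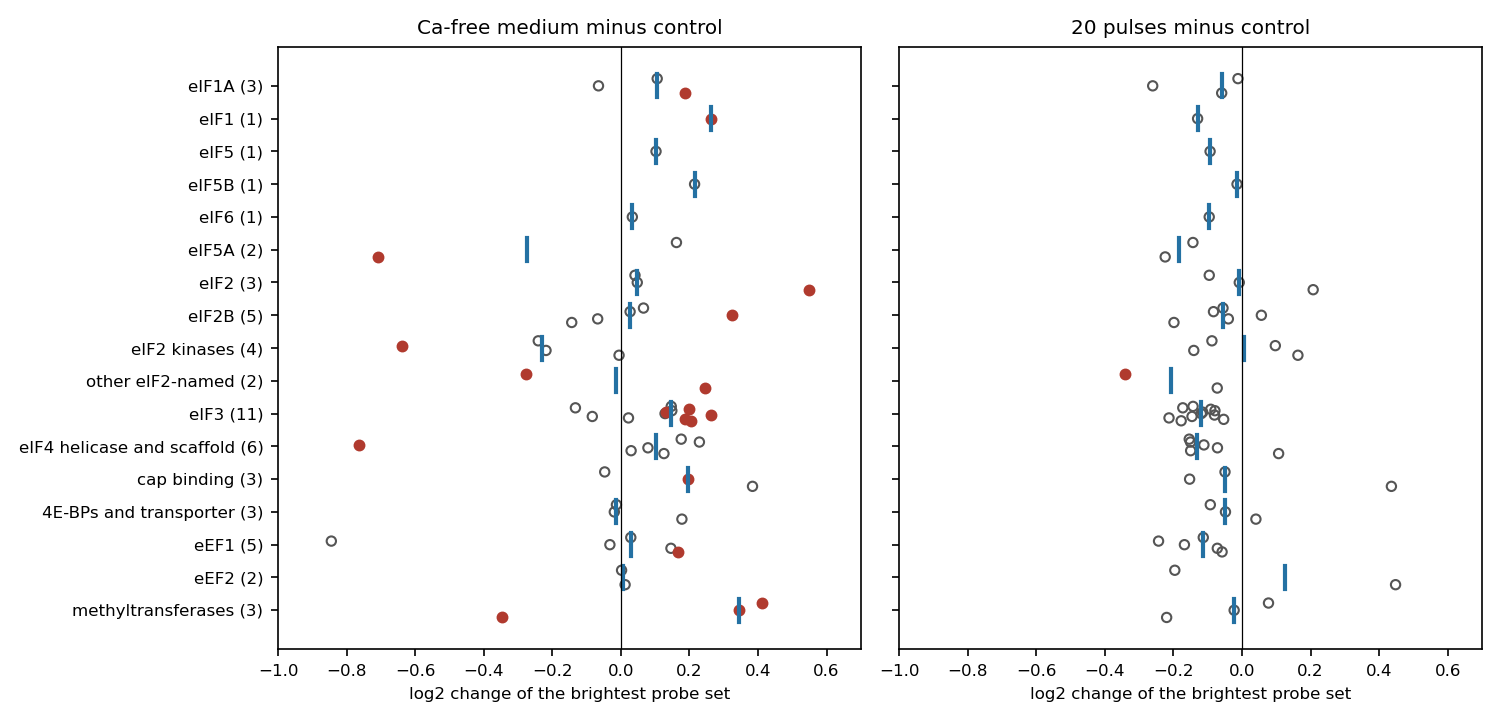
Log2 change of the brightest probe set of each tested translation factor gene by complex (number of genes in brackets), for Ca-free medium (left) and 20 pulses (right) minus control. Filled points are called, open points are not, and the blue bars are medians of each complex. The 11 eIF3 genes cluster between -0.13 and 0.26 in Ca-free medium, while Eif4b stands at -0.76.

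Eif3h, an outer subunit of the MPN domain type, had the largest increase of the complex by brightest probe sets. It read 8825, 9268, 7844 and 9636 in Ca-free medium, 6847, 6832, 7012 and 7279.6 after 20 pulses and 6839.7, 7645, 7881 and 7244 in controls, and Ca-free array 3 alone fell within the range of the controls (log2 change 0.26 ± 0.06 (SE), adjusted p = 0.00571). Eif3m, a subunit of the PCI domain type, read 6011, 6463, 5852 and 5492 in Ca-free medium, 4689.5, 4193, 4842 and 4524 after 20 pulses and 4756, 4968, 5471 and 5466 in controls. All its Ca-free arrays lay above all others (log2 change 0.20 ± 0.07 (SE), adjusted p = 0.0253), while the call ended without Ca-free array 1, Ca-free array 2, control 1 or control 2 (log2 change 0.16 to 0.20, adjusted p up to 0.0808) and the dimmer probe set fell, reading 1366 to 1731 in Ca-free medium, 1675 to 2053 after 20 pulses and 2082 to 2272 in controls (log2 change -0.51, adjusted p = 0.000663). Quantile and hybridization control scaling ended the call of Eif3m, and hybridization control scaling that of Eif3h.

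Eif3c, a core subunit, read 9242, 9296, 8320.1 and 10593 in Ca-free medium, 7469, 7353, 7627 and 8051 after 20 pulses and 7537, 8129.9, 8672 and 8180.4 in controls, with Ca-free array 3 among the controls (log2 change 0.20 ± 0.07 (SE), adjusted p = 0.0269). The call ended without Ca-free array 4 or control 1 (log2 change 0.14 to 0.16, adjusted p up to 0.0837). Its dimmest probe set rose more clearly, with 6099, 5264, 5029.8 and 6588 in Ca-free medium, 4505, 3949, 4904 and 4388 after 20 pulses and 3737, 4093, 4394 and 4422 in controls (log2 change 0.46 ± 0.09 (SE), adjusted p = 0.00175), and did so under all 4 scalings. Eif3l read 9262, 9113, 8127 and 9438 in Ca-free medium, 7646, 7399, 7414 and 7898 after 20 pulses and 7985, 8429.6, 7787 and 7334 in controls (log2 change 0.19 ± 0.06 (SE), adjusted p = 0.0172), a call that ended without control 4 (log2 change 0.15, adjusted p = 0.0527). Its dimmest probe set fell under all 4 scalings, to 246 to 330.4 in Ca-free medium, against 393 to 643 in controls (log2 change -0.77, adjusted p = 0.00249). Eif3e read 14443, 14505, 13175 and 14755 in Ca-free medium, 12065, 11617, 11733 and 12521 after 20 pulses and 12530, 13865, 12923 and 12614 in controls and had the smallest called change (log2 change 0.13, adjusted p = 0.0404). That call ended without Ca-free array 1, Ca-free array 2, Ca-free array 4, control 1, control 3 or control 4 (log2 change 0.11 to 0.13, adjusted p up to 0.106).

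Eif3a, the largest subunit, held the largest increase of any factor probe set with the main scaling and all 4 controls, away from its brightest one. The brightest read 12048, 12975, 11740 and 11708 in Ca-free medium, 10357, 9869.6, 9315 and 10084 after 20 pulses and 11679, 12026, 10023 and 10145 in controls and was not called (log2 change 0.15). The third read 1454, 2115, 2286 and 1656 in Ca-free medium, 1262, 1677, 1352 and 1658 after 20 pulses and 1394, 1355, 730.1 and 664 in controls. The fourth read 1294, 1069, 1002 and 1358 in Ca-free medium, 939, 1098, 1050.4 and 987 after 20 pulses and 850.4, 941, 631 and 617 in controls. In both, controls 3 and 4 lay far below controls 1 and 2, the same split as in the 3' to 5' ratio of Actb. The log2 changes in Ca-free medium were 0.89 ± 0.22 (SE), adjusted p = 0.00565 and 0.63 ± 0.13 (SE), adjusted p = 0.00281, called under all 4 scalings. Against controls 1 and 2 alone they were 0.42 (adjusted p = 0.0699) and 0.38 (adjusted p = 0.0366), and against controls 3 and 4 alone 1.37 (adjusted p = 0.000482) and 0.88 (adjusted p = 0.00119). The 5' signal of 18S ribosomal RNA divides the controls in the same way. The part of that split was not tested further. With quantile normalization the dimmest tested probe set of Eif1ax had the larger increase (1.12, against 0.82 for the third of Eif3a).

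Eif3b, a core subunit, read 3159.7, 3087, 3177 and 2673 in Ca-free medium, 2718, 3213, 2799.9 and 3027 after 20 pulses and 2915, 3023, 3757 and 3626 in controls and had the most negative change of the complex in Ca-free medium (log2 change -0.13, adjusted p = 0.247). Eif3k, an outer subunit, read 6066, 6318, 5882 and 6595 in Ca-free medium, 5143, 4997, 5502 and 5460 after 20 pulses and 5096, 5638, 6751 and 7205 in controls and had the most negative change after 20 pulses (-0.21), with controls 1 and 2 at the level of the 20-pulse arrays and controls 3 and 4 above. The brightest probe sets of Eif3d, Eif3f and Eif3i had log2 changes of 0.15, 0.13 and -0.08 in Ca-free medium and were not called. A dim second probe set of Eif3d read 105, 124, 144 and 133 in Ca-free medium, 116, 82.8, 137 and 151 after 20 pulses and 217, 228, 199 and 205 in controls, lower in both treatments than in all controls, with log2 changes of -0.63 ± 0.16 (SE), adjusted p = 0.0068 in Ca-free medium and -0.69 ± 0.16 (SE), adjusted p = 0.0447 after 20 pulses. The call after 20 pulses ended whichever of the 8 arrays compared was left out (log2 change -0.56 to -0.78, adjusted p up to 0.108). It also ended under quantile and median scaling, with an added value of 1, with no filter and with a replicate block. Either pair of controls alone, or only the 8 arrays compared, ended it too. The call in Ca-free medium ended under quantile and median scaling and against controls 3 and 4 only.

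The eIF4 factors bind the cap and open the leader. Of 12 tested genes 1 rose and 1 fell in Ca-free medium, against 12.3% and 28.8% of all genes. Their median log2 change was 0.10, which became 0.03, 0.51 and -0.10 under quantile, median and hybridization control scaling. Eif4b, which stimulates the helicase eIF4A, had the largest called decrease of any factor gene on its brightest probe set. It read 1278, 1600.4, 1421 and 1463 in Ca-free medium, 2238, 2411, 2264 and 2203 after 20 pulses and 2327, 2293, 2528 and 2726 in controls. The Ca-free arrays lay far below both other groups, which overlapped each other (log2 change -0.76 ± 0.08 (SE), adjusted p = 9.67e-05 against control and -0.65 ± 0.08 (SE), adjusted p = 0.000411 against 20 pulses). The decrease held under all 4 scalings, without any single array (-0.82 to -0.71) and against either pair of controls.

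Its second probe set moved the other way. It read 1666, 2468, 2537 and 1628 in Ca-free medium, 1992, 1845, 1551 and 1677 after 20 pulses and 1345, 1492, 1353 and 1414 in controls, and all Ca-free arrays lay above all controls, with arrays 2 and 3 the highest (log2 change 0.53 ± 0.13 (SE), adjusted p = 0.00704). The third read 1074, 1829, 1711 and 1025 in Ca-free medium, 1288, 1620.5, 1475 and 1458 after 20 pulses and 1346, 1592, 1340 and 1452 in controls and was not called (log2 change -0.07). Dividing the first by the second on each array gave 0.560 to 0.898 in Ca-free medium, 1.12 to 1.46 after 20 pulses and 1.54 to 1.93 in controls, 3 ranges that did not overlap and that multiplying an array by a constant does not move. The mean of the 3 probe sets was not called in Ca-free medium. The increase of the second probe set ended with hybridization control scaling.

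**Figure D4:**
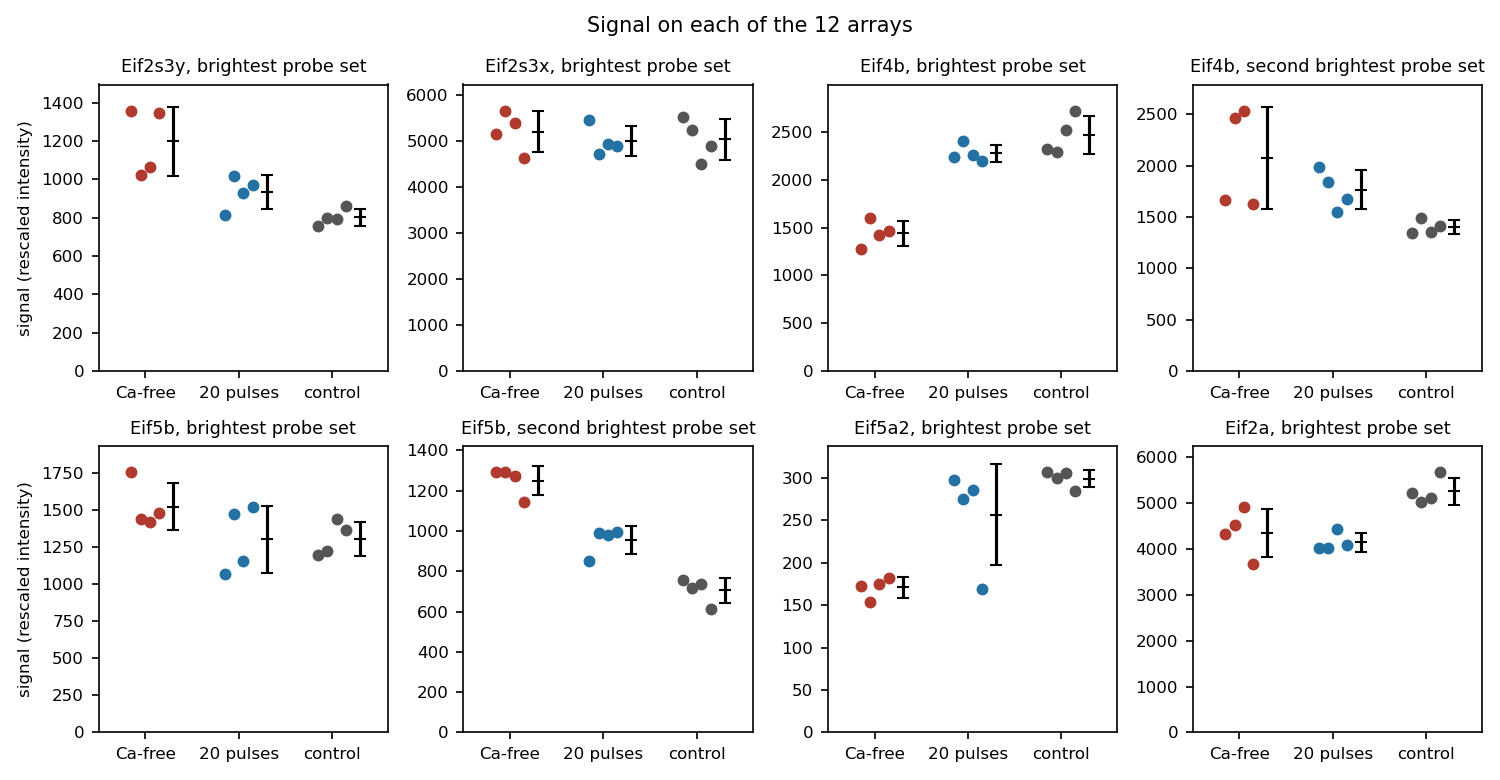
Signal (rescaled intensity, linear axes from 0) on each of the 12 arrays for 8 probe sets of 6 genes, grouped as Ca-free medium, 20 pulses and control, with the mean and SD of the 4 arrays in black. The brightest Eif4b probe set reads at most 1600.4 in Ca-free medium and at least 2203 on all other arrays, whereas all Ca-free arrays lie above all controls for its second.

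Eif4a1, the main cap-complex helicase, read 7397, 8425, 7085 and 7546 in Ca-free medium, 5982, 5795, 5944 and 6451 after 20 pulses and 5387, 6929, 7375 and 7412 in controls. Control 1 lay apart from the other controls, and the gene was not called (log2 change 0.18, adjusted p = 0.12). Eif4a2, its paralogue, read 5975, 7009, 6428 and 7896 in Ca-free medium, 4682, 5392, 5096 and 5740.5 after 20 pulses and 6556, 6198, 5642 and 4897 in controls and was not called either (log2 change 0.23, adjusted p = 0.0722). A dimmer probe set of Eif4a1 rose in Ca-free medium (log2 change 0.49, adjusted p = 0.00624), a call that ended with hybridization control scaling, against controls 1 and 2 only and with Ca-free arrays 1 and 4 only (log2 change 0.28, 0.38 and 0.26). Against 20 pulses both were called higher in Ca-free medium, without overlap, with the main scaling. Eif4h, a second helicase partner, read 14055, 14717, 13517 and 14493 in Ca-free medium, 13542, 12104, 12258 and 13275 after 20 pulses and 13161, 14083, 13399 and 13105 in controls and was level on its brightest probe set (log2 change 0.08). Another fell under all 4 scalings, reading 1124, 1114, 1052 and 1140 in Ca-free medium, 1507, 1432, 1253 and 1249 after 20 pulses and 1734, 1687, 1844 and 1582 in controls (log2 change -0.61 ± 0.08 (SE), adjusted p = 0.000232). Eif4g2, the scaffold also called DAP5 that lacks the cap-binding partner's site, and Eif4g3, a full-length scaffold, had log2 changes of 0.03 and 0.13 in Ca-free medium and -0.15 and 0.11 after 20 pulses. Of the 3 tested probe sets of Eif4g3 the 2 dimmer ones fell in Ca-free medium, by 0.39 (adjusted p = 0.0369) and 0.43 (adjusted p = 0.00958) on the log2 scale, and neither quantile normalization nor median scaling kept these calls. The first also ended without Ca-free array 1 or 4 or control 1, 2 or 4 (log2 change -0.28 to -0.41, adjusted p up to 0.114).

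Eif4e, the cap-binding protein, read 4554, 4688, 4538 and 4380 in Ca-free medium, 5029, 4420, 4530.3 and 4186 after 20 pulses and 4591, 4644, 4984 and 4556 in controls, and the groups overlapped (log2 change -0.05). Of its other 3 probe sets 1 rose by 0.24 (adjusted p = 0.0122) and the dimmest fell, to 108 to 151 in Ca-free medium, against 193 to 239 in controls. Eif4e2, the cap-binding repressor 4EHP, rose on its brightest probe set, with 6798, 7024, 6606 and 7443 in Ca-free medium, 5157, 5737, 5274 and 5698 after 20 pulses and 5869, 5681, 6496 and 6284 in controls (log2 change 0.20 ± 0.06 (SE), adjusted p = 0.0175). That call ended without Ca-free array 4 or control 2 (log2 change 0.16, adjusted p up to 0.0539). Its 3 dim probe sets fell, by 0.94, 0.53 and 0.63 on the log2 scale. The first of these held under all 4 scalings, and quantile normalization and median scaling ended the other calls. The decrease of 0.53 (adjusted p = 0.0494) also ended without Ca-free array 2 or 4 or control 1, 3 or 4 (log2 change -0.32 to -0.54, adjusted p up to 0.154), with an added value of 1, with no filter or no intensity trend, with a replicate block, against either pair of controls, with Ca-free arrays 2 and 3 only and with only the 8 arrays compared. Eif4e3, a dim paralogue, read 185, 156, 267 and 144 in Ca-free medium, 214, 229, 192 and 139 after 20 pulses and 139, 117, 148 and 129 in controls and had the highest change of the eIF4 group in both comparisons without a call (log2 changes 0.38 and 0.44).

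The 4E-BPs hold eIF4E away from the scaffold until mTOR phosphorylates them. Eif4ebp1 read 12376, 12884, 12274 and 12578 in Ca-free medium, 12362, 11284, 11943 and 11848 after 20 pulses and 12424, 13089, 12469 and 12586 in controls on its brightest probe set and was level in Ca-free medium (log2 change -0.01). The second rose under all 4 scalings, with 6819, 6467, 5704 and 7348 in Ca-free medium, 5186, 4752, 4727 and 5838 after 20 pulses and 4668, 4955, 5039 and 5120.4 in controls (log2 change 0.41 ± 0.08 (SE), adjusted p = 0.00182). The third fell under all 4, with 127, 125, 153 and 171 in Ca-free medium, 299, 195, 232 and 172 after 20 pulses and 273, 274, 249.8 and 287 in controls (log2 change -0.79 ± 0.15 (SE), adjusted p = 0.00149). Eif4ebp2 read 2840.3, 2780.3, 2700.5 and 2789.8 in Ca-free medium, 2779, 2593, 2877 and 2645 after 20 pulses and 2762, 2647, 2750 and 3122 in controls on its brightest probe set and was not called in either comparison, though 2 of its 5 tested probe sets fell in Ca-free medium. Eif4enif1, which carries eIF4E into the nucleus, had a log2 change of 0.18 in Ca-free medium.

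In all, 9 of the 35 genes with several tested probe sets had one called higher and another called lower in Ca-free medium: Eef1d, Eif1ad, Eif2d, Eif3l, Eif3m, Eif4b, Eif4e, Eif4e2 and Eif4ebp1. Of all 5700 genes with several tested probe sets 7.32% were divided in this way, a share not matched for signal or for probe sets per gene. Over probe sets, 34 of 131 rose and 27 fell, against 10.6% and 29.7% of all tested probe sets. Under all 4 scalings 8 factor probe sets rose and 9 fell, against 2.75% and 4.5% of all tested probe sets, and Eif4ebp1 was the gene with one of each. After 20 pulses 1 of 131 rose and 2 fell, against 1.1% and 0.374% of all tested probe sets, and 0 genes were divided, against 0.0175% of all genes with several.

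**Figure D5:**
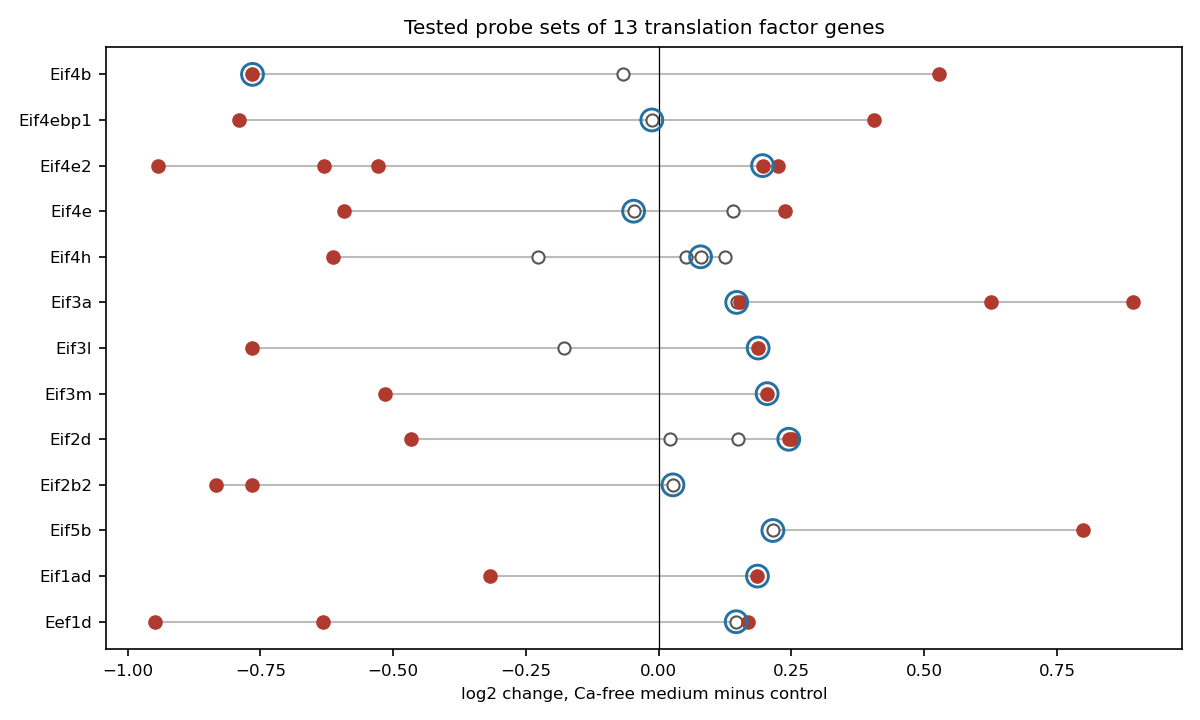
Log2 change, Ca-free medium minus control, of every tested probe set of 13 translation factor genes. Filled points are called, open points are not, and the blue ring marks the brightest probe set of each gene. The 3 probe sets of Eif4b stand at -0.76, 0.53 and -0.07, and those of Eif4ebp1 at -0.01, 0.41 and -0.79.

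Among the 10 tested elongation genes 3 rose and 1 fell in Ca-free medium, against 12.3% and 28.8% of all genes. Their median log2 change was 0.02, which became 0.01, 0.43 and -0.17 under quantile, median and hybridization control scaling. Eef1a1, which delivers aminoacyl-tRNA to the ribosome, read 14808, 15479, 13253 and 16391 in Ca-free medium, 14623, 12488, 12929 and 14220 after 20 pulses and 14156, 16720, 14709 and 13200 in controls, with all groups overlapping (log2 change 0.03). Its paralogue Eef1a2, known from muscle and neurons, read 315, 203, 412 and 154 in Ca-free medium, 292, 665, 503 and 264 after 20 pulses and 456, 555, 773 and 272 in controls. The spread within each group was wide, the groups overlapped, and the log2 change of -0.84 ± 0.33 (SE), adjusted p = 0.0516 was not called, though it was without Ca-free array 3 (-1.06) or control 4 (-1.10). Eef1b2 and Eef1d, subunits of the exchange factor of eEF1A, had log2 changes of -0.03 and 0.15 on their brightest probe sets and were not called. A dim probe set of Eef1d fell under all 4 scalings and read 244, 169, 250.3 and 218 in Ca-free medium, 329, 384, 369 and 392 after 20 pulses and 450.1, 447, 438 and 468 in controls (log2 change -0.95 ± 0.11 (SE), adjusted p = 0.000177). Eef1e1, an accessory protein of the aminoacyl-tRNA synthetase complex, read 9311, 9943, 8977 and 9884 in Ca-free medium, 8631, 7802, 8145 and 7989.9 after 20 pulses and 8226, 8547, 8768 and 8355 in controls and rose without overlap (log2 change 0.17 ± 0.05 (SE), adjusted p = 0.0142), a call that ended under quantile and hybridization control scaling.

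Eef2, which moves the ribosome from codon to codon, read 9168, 8629, 8172 and 9858 in Ca-free medium, 7811, 7948, 7666 and 7719 after 20 pulses and 8684, 8645, 9404 and 8977 in controls. It was level in Ca-free medium (log2 change 0.00), and all 20-pulse arrays lay below all controls without a call (log2 change -0.20, adjusted p = 0.0913). Eef2k, the Ca2+- and calmodulin-dependent kinase that inhibits eEF2, read 279, 251, 249 and 316 in Ca-free medium, 352, 374, 388 and 409 after 20 pulses and 292, 234, 289 and 268 in controls. The 20-pulse arrays were the highest and overlapped neither of the other groups, and Ca-free medium and control overlapped each other (log2 change 0.01). The change after 20 pulses was 0.45 ± 0.11 (SE), adjusted p = 0.0522 and missed the threshold, which it passed under quantile normalization (0.49, adjusted p = 0.0368) and with hybridization controls (0.60, adjusted p = 0.00831). Between Ca-free medium and 20 pulses Eef2k fell by 0.44 on the log2 scale (adjusted p = 0.00851), a call that quantile and median scaling ended.

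The methyltransferases that modify eEF1A moved in both directions in Ca-free medium. Eef1akmt1, a lysine methyltransferase, read 2056, 2054, 2034 and 2037 in Ca-free medium, 1429, 1752, 1566 and 1744 after 20 pulses and 1375, 1448, 1683 and 1638 in controls, with every Ca-free array above every other array (log2 change 0.41 ± 0.08 (SE), adjusted p = 0.00205). All 3 of its tested probe sets rose, the dimmest under all 4 scalings (log2 change 0.60), while hybridization control scaling ended the call of the brightest. Eef1akmt2 read 678, 646, 566 and 612 in Ca-free medium, 411, 468, 510.2 and 527 after 20 pulses and 404, 419, 589 and 555 in controls (log2 change 0.34 ± 0.12 (SE), adjusted p = 0.0391), and the call ended without Ca-free array 1, Ca-free array 2, Ca-free array 4, control 1 or control 2 (log2 change 0.26 to 0.35, adjusted p up to 0.122). Eef1aknmt, which methylates the N terminus of eEF1A, read 837, 766, 724 and 788 in Ca-free medium, 864, 904, 885 and 764 after 20 pulses and 1071, 1076, 957 and 899.9 in controls and fell without overlap (log2 change -0.35 ± 0.09 (SE), adjusted p = 0.00662). Under median scaling its log2 change was 0.05.

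Ca-free medium was also set against 20 pulses, a comparison that shares the Ca-free arrays with the one above. There 25 of the 56 genes were higher in Ca-free medium and 4 lower, against 11.2% and 21% of all genes. Medians were 0.15 for the factors and -0.12 for all genes. The direction went with signal here too. Of the 46 factor probe sets averaging 5000 or more, 31 were higher (67.4%), against 61.9% of all probe sets as bright. By group, 4 of 9 single factors, 2 of 14 eIF2 genes, 8 of 11 eIF3 genes, 5 of 12 eIF4 genes and 6 of 10 elongation genes were higher. The 4 lower were Eif4b, Eef2k, Eif2ak2 (log2 change -0.74 ± 0.16 (SE), adjusted p = 0.00428) and Eif5a2 (log2 change -0.48 ± 0.14 (SE), adjusted p = 0.0198). The call of Eif5a2 ended without 20-pulse array 1, 20-pulse array 2 or 20-pulse array 3 (log2 change -0.41 to -0.45, adjusted p up to 0.0645). With hybridization controls 0 genes were higher and 33 lower by limma, against 0.279% and 70.4% of all genes. With median scaling 48 were higher and 1 lower, against 37.8% and 2.43%, and with quantile normalization 7 were higher and 3 lower, against 5.35% and 5.14%.

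Other genes of the pathway were taken from a list of 28 regulators of mTOR signalling, cap binding, reinitiation and hypusine formation, of which 27 were measured. In Ca-free medium 8 rose and 4 fell, against 12.3% and 28.8% of all genes, with a median log2 change of 0.00. After 20 pulses 0 were called by limma, while 0.75% of all genes rose and 0.331% fell. At an unadjusted p under 0.05, 3 were higher and 4 lower, and all genes were not counted at that threshold. These shares are not matched for signal. The largest increases were in Denr, a reinitiation factor (0.47), Paip2, an inhibitor of poly(A)-binding protein (0.43), and Gigyf2, a partner of Eif4e2 (0.42), by brightest probe sets. Another probe set of Gigyf2 fell by 0.98 on the log2 scale (adjusted p = 0.000304), with all Ca-free arrays below all controls. The largest decreases were in Mknk1, a kinase of eIF4E (-0.70), and Ppp1r15a, the stress-induced phosphatase subunit that removes phosphate from eIF2 (-0.64).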

How the data were processed

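Total RNA of 12 blastocyst samples had been labelled and hybridised to arrays, per the labels' protocols. The deposited values are linear intensity made with MAS5, per the submitters' processing notes. Every deposited array has the same 2% trimmed mean and 0 missing values, and no version or genome build is given. The number of arrays limits the precision.

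Each array was rescaled to a trimmed mean of 500, 32 was added, and log2 was taken. The 27808 probe sets averaging at least 100 over 12 arrays were fitted in limma 3.58.1 (R 4.3.3; lmFit, eBayes with a trend on intensity, 1 model for all 12 arrays), and p-values were adjusted over all of them. Called means adjusted p under 0.05. The procedure was tested on simulated data. The platform's table pairs 34945 probe sets with 1 gene, 932 with several and 9160 with none, 64 array controls aside. All 155 factor probe sets matched RefSeq (GRCm38.p6) by gene identifier, used for names and for sequence windows. A gene is read by its brightest tested probe set, and probe set signals are not abundances to be compared between genes.

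The members, lists and tests were chosen with earlier results of these data known. Values on every array are given for called genes (up to 12 a direction), for each complex's brightest member and extremes, for paralogue pairs and for genes whose probe sets were called in opposite directions. Other probe sets were named after their values were seen. Alternatives were quantile, median and hybridization control scaling, other added values and minimums, no trend, array weights, averaging each gene's probe sets, pairs of arrays, each array left out and a replicate block. Same-numbered arrays of different groups correlated little in their residuals (mean r 0.0156, -0.0580 to 0.101), so the samples were not treated as paired.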

Additional observations from a re-analysis of the deposited data

Results flagged for a closer look

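In 6 of 168 groups of 4 arrays 1 array stood apart from the other 3 of its group by more than Dixon's 95% critical value. Chance gives about 1 in 20 such groups.

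After 20 pulses, Eif5a2 read 168.83 on array 4, within the range of the Ca-free arrays, and 275 to 298 on the others. Eif1ax read 4703.5 on array 2 after 20 pulses and 6596 to 6759 on the others. Eif3d read 7455.9 on array 4 after 20 pulses and 7144 to 7174 on the others. In Ca-free medium, Eif1a read 5678.9 on array 3 and 5313 to 5372 on the others, and Eif3b read 2672.9 on array 4 and 3087 to 3177 on the others. Among controls, Eif2ak3 read 889.05 on array 3 and 748 to 766 on the others. Of these genes only Eif5a2 was called against control on this probe set, in Ca-free medium, where none of its 4 arrays stood apart by this measure.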

How the results depend on the processing

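The count of genes in each direction depended on the scaling, and the cause was not tested. For Ca-free medium minus control, 14 genes were higher and 5 lower with the main setting. Quantile normalization gave 5 and 9, median scaling 47 and 2, and hybridization controls 1 and 22. Higher genes numbered 7 with no intensity trend, 4 at an adjusted p under 0.01, 6 against controls 3 and 4 only and 5 with Ca-free arrays 2 and 3 only. Leaving out each array in turn gave 8 to 17 higher, with 8 without control 1 and 9 without Ca-free array 4. Lower genes numbered 3 at a minimum signal of 300, where fewer genes are tested, 3 against controls 1 and 2 only and 12 after averaging each gene's probe sets. For 20 pulses minus control, 0 genes were higher by limma (2 at an unadjusted p under 0.05) and 1 lower, and leaving out each array of these groups gave 0 higher and 0 lower. There 1 gene was higher with quantile normalization, hybridization controls, an added value of 100, a minimum of 300, array weights or averaging of each gene's probe sets. Lower genes numbered 0 with median scaling, hybridization controls, no filter, no trend, a replicate block, an adjusted p under 0.01 or controls 1 and 2 only, and 2 with a minimum of 300, array weights, controls 3 and 4 only or only the 8 arrays compared. For Ca-free medium minus 20 pulses, 25 were higher and 4 lower. Higher genes numbered 7 with quantile normalization, 48 with median scaling, 0 with hybridization controls, 14 at an adjusted p under 0.01 and 14 with Ca-free arrays 2 and 3 only. Lower genes numbered 1 with median scaling, 33 with hybridization controls, 2 at a minimum of 300, 9 after that averaging and 2 with Ca-free arrays 1 and 4 only.

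Among log2 changes past the threshold with the main setting or with the alternative, those in Ca-free medium minus control turned sign under 3 alternatives. Changes that were called in neither are not listed. Values are for brightest probe sets, or for a dimmer one where marked. With median scaling they were Eef1b2 0.38, Eif4ebp1 0.40, Eif3i 0.33, Eif1ax 0.35, Eif4e 0.36, Eif2a 0.13, Eif2b4 0.34, Eif2b5 0.27, Eif4ebp2 0.39, Eef1aknmt 0.051, Eif2ak4 0.38, Eif1ad (dimmer) 0.083, Eif4g3 (dimmer) 0.0064 and Eif4ebp2 (dimmer) 0.029. With hybridization controls they were Eef1a1 -0.18, Eif4h -0.13, Eif3e -0.076, Eif2s2 -0.17, Eif4g2 -0.18, Eef1e1 -0.038, Eef2 -0.20, Eif3c -0.0066, Eif3l -0.019, Eif4e2 -0.010, Eif3m -0.0014, Eif1ad -0.019, Eif5 (dimmer) -0.018, Eif3a (dimmer) -0.053, Eif3c (dimmer) -0.020, Eif3e (dimmer) -0.0027 and Eef1d (dimmer) -0.038. After averaging each gene's probe sets they were Eef1d -0.32, Eif3l -0.25, Eif3d -0.24, Eif4e2 -0.34, Eif3m -0.16, Eif2b2 -0.52, Eif1ad -0.066 and Eif4g3 -0.23. With the replicate number as a block 14 genes were higher and 6 lower in Ca-free medium and 0 were higher and 0 lower after 20 pulses, both against control, and 26 were higher and 5 lower in Ca-free medium against 20 pulses. Of 68 called log2 changes 63 stayed past the threshold with the block. Same-numbered arrays share only a number: 7 of 12 arrays correlated best with their own number, and the mean correlation of same-numbered arrays was 0.0156, against -0.00521 for other pairs of arrays. Signals near the minimum of 100 lie closest to background and are the least certain.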

Other observations

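Around the starts of the factor genes, the letters CACGTG, the site that Myc and related factors can bind, occurred between 250 bases before and 50 bases after a start in 12 of 47 genes with an entry (25.5%), against 8.09% of all 27025 genes in the same table. Both strands read alike, since the motif is its own reverse complement. Of the 12 genes, all tested, 1 rose and 2 fell in Ca-free medium, with a median log2 change of 0.05. Of the 33 tested genes without it 9 rose and 3 fell, with a median of 0.05. A match describes the sequence and is not a bound site.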
